A study of Mus musculus with 6 samples.

Results

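The replication-dependent histone genes encode the H1 linker histone and the H2A, H2B, H3 and H4 proteins that package newly copied DNA. They were followed here in megakaryocyte-erythroid progenitors (MEP) sorted from fresh bone marrow, the common precursors of megakaryocytes and red cells, with and without T-bet. Members were the genes with a probe set of their own, that is with a single symbol in the array annotation, whose symbol begins with H1f, H2ac, H2bc, H3c or H4c and a number, and whose RefSeq record carries an older Hist1h to Hist4h name. This gave 26 of the 22180 genes on the array. They comprised 5 H1, 6 H2A, 8 H2B and 7 H4 genes, with 21 on chromosome 13 and 5 on chromosome 3. The single gene with more than 1 probe set, H2ac21, was represented by the one of highest mean.

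H3 was missing from this set. RefSeq lists 64 genes with such a symbol and an older Hist name, 12 of them H3 genes, and 38 of the 64 had no probe set of their own. Of these 38, 37 were named only in probe sets that the annotation assigns to several genes at once. A further 14 of the 26 members were named in such shared probe sets as well as in their own. Shared probe sets are described below by histone type and never by gene. No member's row was identical to another row, but 6 of the 38 shared rows formed pairs with the same values on every array, which left 35 distinct ones.

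The mice were C57BL/6 by their labels, 3 T-bet knockout and 3 wild type, and each array is described as a separate animal. T-bet is the product of Tbx21 and is best known for directing T helper and natural killer cell fates. No treatment is named, the labels used here state neither the knockout allele nor an age, and both groups share the strain, the sort and the labelling. The values are the deposited log2 signals of the 6 arrays, on which 1 unit is a doubling of signal, and ± is the SD over 3 arrays.

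Histone genes of this class are transcribed almost only while DNA is being copied. Most of their mRNAs carry no poly(A) tail and end in a stem-loop, which is bound by SLBP and cut with the help of the U7 small nuclear ribonucleoprotein. The genes lie in clusters, and copies within a type are so alike that a probe can read several of them. Whether the labelling was primed on poly(A) is not stated in the labels used here.

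The promoters show how the types differ in the sequence around their start sites. RefSeq promoter windows of GRCm38.p6, 250 bases before to 50 after the start, were held for 24 of the 26 members. The 250 bases before the start are printed 5′ to 3′ for an H1 gene, for H2bc12, whose window overlaps that of an H2A gene, and for the 2 H4 genes whose groups did not overlap. Capitals mark the CCAAT box, the TATAAA box and the octamer ATTTGCAT, each searched on both strands. H1f5 lies at chr13:21780626-21780875, minus strand; H2bc12 at chr13:22035571-22035820, plus strand; H4c1 at chr13:23761250-23761499, minus strand; and H4c2 at chr13:23756687-23756936, plus strand.
H1f5: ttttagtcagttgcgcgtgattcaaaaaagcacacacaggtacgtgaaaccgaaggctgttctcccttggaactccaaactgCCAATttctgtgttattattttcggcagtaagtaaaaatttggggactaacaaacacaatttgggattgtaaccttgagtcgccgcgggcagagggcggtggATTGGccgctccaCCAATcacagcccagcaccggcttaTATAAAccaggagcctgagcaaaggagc
H2bc12: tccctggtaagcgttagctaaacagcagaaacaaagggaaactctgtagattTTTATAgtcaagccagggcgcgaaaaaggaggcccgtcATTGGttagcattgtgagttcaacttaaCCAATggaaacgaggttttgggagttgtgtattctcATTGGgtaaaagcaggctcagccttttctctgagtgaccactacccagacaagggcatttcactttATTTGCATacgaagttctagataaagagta
H4c1: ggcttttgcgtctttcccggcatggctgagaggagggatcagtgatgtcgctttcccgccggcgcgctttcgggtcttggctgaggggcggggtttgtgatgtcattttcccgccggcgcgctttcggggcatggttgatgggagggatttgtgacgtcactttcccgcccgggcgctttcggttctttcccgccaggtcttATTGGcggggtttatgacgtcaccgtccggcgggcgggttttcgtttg
H4c2: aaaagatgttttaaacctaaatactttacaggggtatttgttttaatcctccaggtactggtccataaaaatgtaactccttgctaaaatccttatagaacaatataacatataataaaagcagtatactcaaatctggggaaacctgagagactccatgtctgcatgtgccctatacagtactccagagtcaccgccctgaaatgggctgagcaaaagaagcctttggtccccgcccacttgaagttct

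CCAAT, the core of the site bound by NF-Y, was present in the windows of 5 of 5 H1, 6 of 6 H2A and 7 of 7 H2B members and in 1 of 6 H4 members, against 37.4% of all 32851 windows of the same length. TATAAA was present in 16 of 24 member windows (66.7%), against 13.6% of all windows. The octamer, known as the site of Oct-1 (Pou2f1) in H2B promoters, was present in 5 of 7 H2B and 3 of 6 H2A windows and in 0 of 5 H1 and 0 of 6 H4 windows, against 1.74% of all. The only TATAAA matches of H4c1, H2ac12 and H2ac15 lie in the 50 bases after the start, which are not printed. H4c2 and H4c8 held none of the 3 motifs. The H2ac1 and H2bc1 windows lay on opposite strands and shared 220 bases, and those of H2ac12 and H2bc12 shared 277, so that motifs there were counted for both genes of a pair. These are matches of letters in a window and show no binding.

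The arrays differed in ways that the genotype labels do not give. In the order of replicates 1, 2, 3, the knockout arrays held Xist, the RNA of the inactive X chromosome, at 11.83, 11.79 and 5.42, and the wild-type arrays held it at 11.81, 12.21 and 5.56. For Uty, a Y-linked gene, the same arrays had 8.36, 8.47 and 9.74, then 8.68, 5.22 and 9.51. Wild-type replicate 2 thus carried Xist alone, replicate 3 of each group Y-linked signal alone, and the other 3 arrays both, which a label of 1 mouse per array does not account for. Many differences given here are small and move by over 1.5 times when 1 array is left out or this sex-linked class is blocked. Many of the larger such moves are given beside the differences. Wild-type replicate 2 is alone in its class, so blocking the class also takes it out of the comparison. That block and leaving this array out are therefore not independent checks. Erythroid markers, the check of the cell type label, had means of 8.47 to 13.67 over 10 genes, with a median difference between the groups of 0.061, or 0.13 without knockout replicate 1. Megakaryocyte markers had means of 6.13 to 8.90 over 7 genes and a median difference of -0.12, or -0.28 without knockout replicate 3. The median differences of markers of other cells were 0.35 for B cells (6 genes; 0.17 without wild-type replicate 2), 0.083 for T or NK cells (6), 0.057 for granulocytes or monocytes (10; -0.049 without knockout replicate 3) and -0.12 for macrophages (6; -0.20 without knockout replicate 1 and -0.046 without knockout replicate 2). In such bulk samples, fewer cells of a type and less RNA per cell cannot be told apart.

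Single histone genes were compared between knockout and wild-type progenitors. Differences (knockout minus wild type) lay between -0.26 and 0.52 and their median was -0.0089, against -0.0045 over all genes. Above 0 were 12 of 26 members (46.2%), against 48.2% of all genes. By limma's moderated test with Benjamini-Hochberg adjustment, 0 of 26 passed an adjusted p of 0.05, where 0.00% of all 41345 probe sets did, so that this count is that of the whole array and not a result about the histone genes. Of the 41345, 2033 had an unadjusted p under 0.05. Only H4c2 of the members had an unadjusted p under 0.05, 1 of 26, where 3.13% of all genes did, 1.44% higher and 1.70% lower in the knockout. The groups did not overlap for 2 members, both higher in the knockout, against 8.70% of all genes in either direction 3.52% in this one and 5.18% lower. Since members are close copies of each other, their count is not a count of independent measurements.

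**Figure D1:**
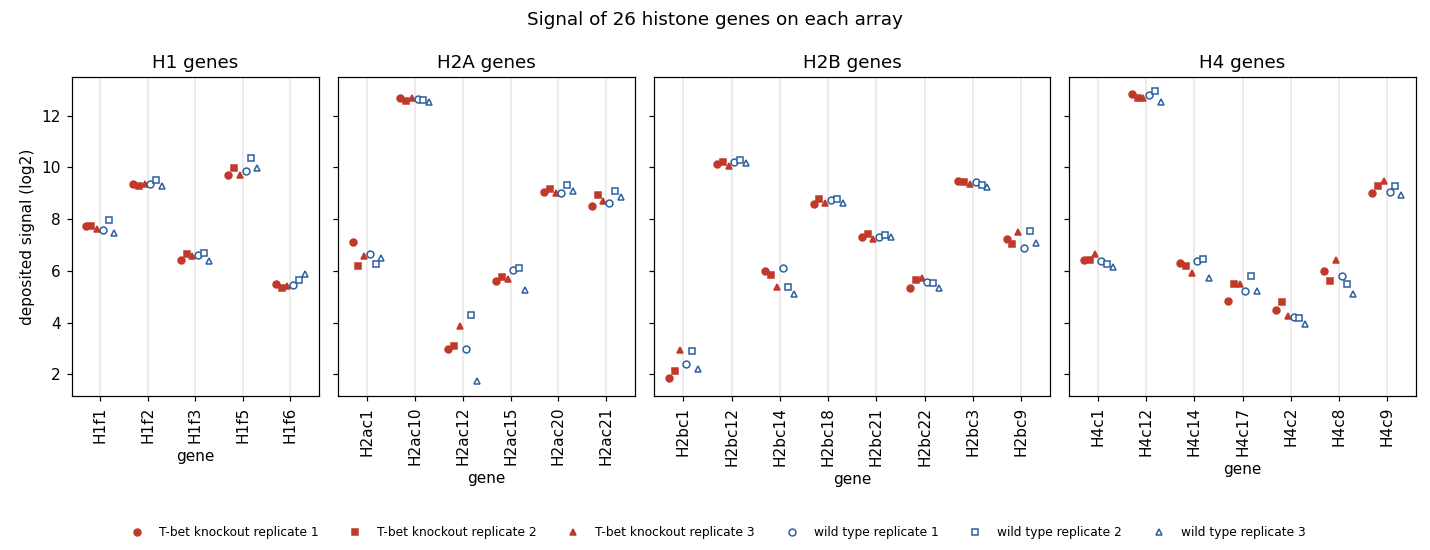
Deposited log2 signal (vertical axis) of each of the 26 histone genes (horizontal axis) on 6 arrays, with filled red symbols for T-bet knockout and open blue symbols for wild type, and circles, squares and triangles for replicates 1, 2 and 3. Within a gene the 6 values lie close together for bright genes such as H2ac10 (12.54 to 12.68) and spread widely for H2ac12 (1.72 to 4.28).

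The intervals bounded some members more closely than others. For 17 of 26 members the whole 95% interval of the difference was inside 1.5-fold up or down (65.4%), against 85.9% of all genes, and for 24 it was inside 2-fold (92.3%), against 98.0%. The spread between arrays of a group was wider for members, with a median SD of 0.20 against 0.14 over all genes, and it was 0.16 for the 19 members outside the dim range defined next. Of the 26, 7 lay in the dimmest 30% of probe sets, with a mean under 5.70, where a difference in signal can understate one in RNA. Among the 19 brighter members the median was -0.0095, 8 were above 0, and 15 intervals (78.9%) were inside 1.5-fold.

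**Figure D2:**
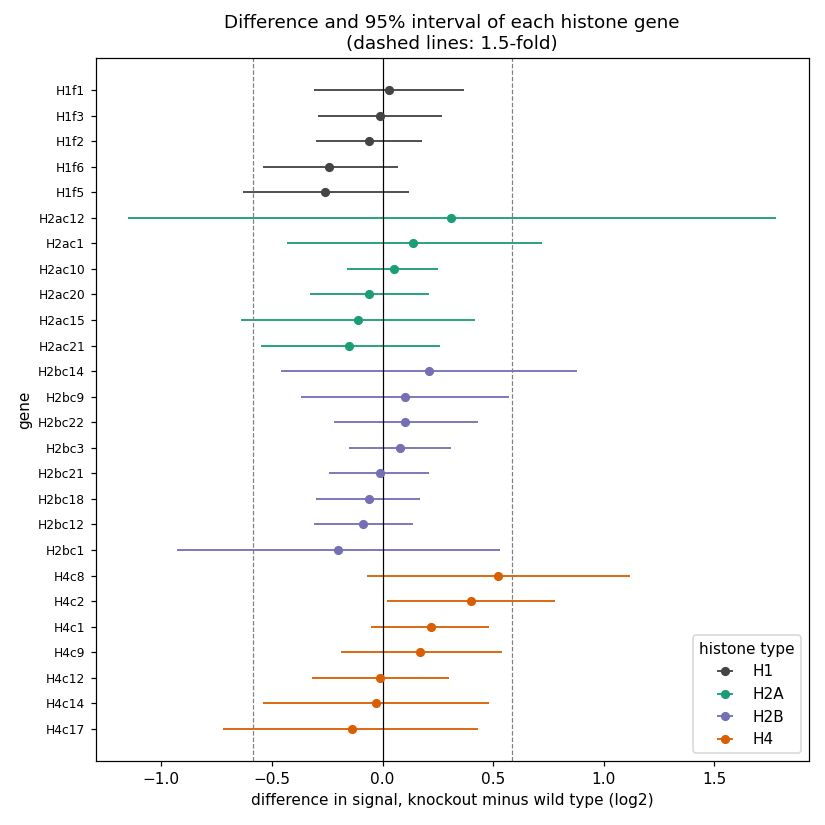
Difference in signal (knockout minus wild type, log2, horizontal axis) with limma's 95% interval for each of the 26 genes (vertical axis), coloured by histone type, n = 3 arrays per group. Of the 26 intervals only that of H4c2 leaves out 0, and the widest belong to H2ac12 and H2bc1, both dim.

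H4, a core histone of the nucleosome, was the type with the highest median difference, 0.17 over 7 genes, of which 4 were above 0. H4c2 read 4.48, 4.80 and 4.26 in the knockout arrays (replicates 1, 2, 3) and 4.22, 4.19 and 3.93 in the wild-type ones. Its values are dim, and the lowest knockout array lies just above the highest wild-type array. The difference, 0.26 without knockout replicate 2, was 0.40 (SE 0.16, 95% interval 0.02 to 0.78, limma unadjusted p = 0.042, adjusted p = 1), and the exact permutation test gave p = 0.1, the smallest that 3 arrays against 3 allow.

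H4c1 read 6.42, 6.40 and 6.64 in the knockout and 6.37, 6.27 and 6.16 in the wild-type arrays. The groups are again just apart, by a difference of 0.22 (SE 0.11, limma adjusted p = 1; exact permutation p = 0.1), or 0.14 without knockout replicate 3. H4c8 had the largest difference of all members, 0.52 (SE 0.25, limma adjusted p = 1), or 1.44-fold. It read 5.98, 5.62 and 6.41 against 5.81, 5.50 and 5.11, and its groups overlapped. Left out, wild-type replicate 3 took this difference to 0.34 and knockout replicate 3 to 0.32. The difference was 0.71 without knockout replicate 2 and 0.69 without wild-type replicate 1. H4c9 read 9.02, 9.27 and 9.47 against 9.03, 9.29 and 8.92, a difference of 0.17 (SE 0.15). Leaving out knockout replicate 3 gave 0.066, wild-type replicate 3 gave 0.094 and knockout replicate 1 gave 0.29.

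The other H4 genes were level or below 0. H4c12 read 12.83, 12.68 and 12.69 in the knockout and 12.78, 12.93 and 12.51 in the wild-type arrays, a difference of -0.01 (95% interval -0.32 to 0.30). H4c14, the H4 gene of chromosome 3, differed by -0.03 and H4c17, in the dim range, by -0.14. Wild-type replicate 3 was the lowest array for 6 of the 7 H4 genes, against 12.9% of all genes. Without it the H4 median was 0.094, and without knockout replicate 3 it was 0.081. In the 5 probe sets that name several H4 genes the median difference was 0.096, and -0.061 without wild-type replicate 3 or -0.038 without knockout replicate 3. The 2 of these 5 that stood apart in size, at 0.31 and 0.24, each name 13 genes, and the groups of both overlapped.

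H1, the linker histone that binds DNA between nucleosomes, had 1 of 5 genes above 0 and a median of -0.060. H1f5 read 9.72, 9.98 and 9.72 in the knockout and 9.85, 10.35 and 9.99 in the wild-type arrays. The difference was -0.26 (SE 0.16, limma adjusted p = 1) with overlapping groups. Leaving out wild-type replicate 2, its highest array, gave -0.11, and blocking the sex-linked class, which also sets that array aside, gave -0.12. With the replicate number as a block its unadjusted p was 0.0476 in place of 0.146 (limma). H1f2 was nearly level, at 9.34, 9.28 and 9.36 against 9.36, 9.52 and 9.27, and H1f1 and H1f3 differed by 0.03 and -0.01. H1f6, the linker histone of the testis, read 5.47, 5.33 and 5.43 against 5.45, 5.63 and 5.87, in the dim range, a difference of -0.24 (SE 0.13), or -0.13 without wild-type replicate 3. Without wild-type replicate 2, the highest array for 4 of the 5, the H1 median was 0.0078.

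H2A and H2B form the dimers at the faces of the nucleosome. The 6 H2A genes had a median difference of -0.0061 with 3 above 0. H2ac10 was the tightest of them, at 12.66, 12.58 and 12.68 in the knockout and 12.64, 12.60 and 12.54 in the wild-type arrays, a difference of 0.05 (95% interval -0.16 to 0.25). H2ac20 had 9.07 ± 0.07 in the knockout and 9.13 ± 0.16 in the wild type, a difference of -0.06. H2ac21 had 2 probe sets, which went opposite ways: the brighter differed by -0.15 (SE 0.17) and the dimmer, at 5.36 to 5.67 over the arrays, by 0.12 (SE 0.10). The brighter differed by only -0.024 once wild-type replicate 2 was left out, and by -0.0073 under the sex-linked block, which also sets that array aside. H2ac12, at 2.97, 3.08 and 3.85 against 2.96, 4.28 and 1.72, had the widest interval of all, -1.15 to 1.78. H2ac15 differed by -0.11, and by -0.37 (limma unadjusted p = 0.0164, adjusted p = 1) without wild-type replicate 3, whose 5.27 is its lowest value.

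The 8 H2B genes had a median of 0.034 with 4 above 0. Without wild-type replicate 1 this median was -0.036. H2bc12 read 10.14, 10.22 and 10.06 in the knockout and 10.21, 10.30 and 10.16 in the wild-type arrays, a difference of -0.09 (SE 0.09). H2bc3 read 9.46, 9.42 and 9.36 against 9.45, 9.31 and 9.24, a difference of 0.08 (SE 0.10). Both are bounded well within 1.5-fold. H2bc18 and H2bc21, of the chromosome 3 cluster, differed by -0.06 and -0.01, H2bc9 and H2bc22 each by 0.10 and H2bc14 by 0.21 (SE 0.28). Of these, H2bc22 and H2bc14 were in the dim range. With the sex-linked class blocked, H2bc14 differed by 0.019 and H2bc9 by 0.33. H2ac1 and H2bc1, the testis-type H2A and H2B genes of the shared promoter, differed by 0.14 (SE 0.24) and -0.20 (SE 0.30). Without knockout replicate 1 these were -0.10 and 0.03. H2bc1 was in the dim range, at 1.84 to 2.92 over all arrays, and H2ac1 read 6.18 to 7.10. The 5 members of chromosome 3 were all slightly below 0, with a median of -0.060, which was 0.012 without wild-type replicate 2.

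Wild-type replicates 2 and 3 stood apart from each other in these genes. Wild-type replicate 2 was the highest of the 6 arrays for 14 of 26 members (53.8%), against 14.3% of all genes. Wild-type replicate 3 was the lowest for 15 of 26 (57.7%), against 12.9% of all genes. Replicate 2 read above replicate 3 in 24 of 26 members, with a median gap of 0.27, where the median gap over all genes was -0.01 and 46.9% had replicate 2 above. H4c12 shows it at high signal, with 12.93 in replicate 2 and 12.51 in replicate 3. The median range over the 3 wild-type arrays was 0.42 for members and 0.21 over all genes, and over the 3 knockout arrays it was 0.25 and 0.26.

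This gap moved the summary of the comparison. Without wild-type replicate 2, 20 of 26 members were above 0 and the median was 0.055; without wild-type replicate 3, 9 were above 0 and the median was -0.090. With the sex-linked class blocked, which also takes wild-type replicate 2 out of the comparison, 19 were above 0. The pair of wild-type arrays differs in that class, and whether it has a part in the gap was not tested. B cell markers, 6 genes with means of 5.58 to 8.51, had mean deviations of -0.48 in wild-type replicate 2 and -0.01 in replicate 3, against 0.23, -0.22 and 0.47 in the knockout arrays and 0.02 in wild-type replicate 1, and their part was not tested either.

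**Figure D3:**
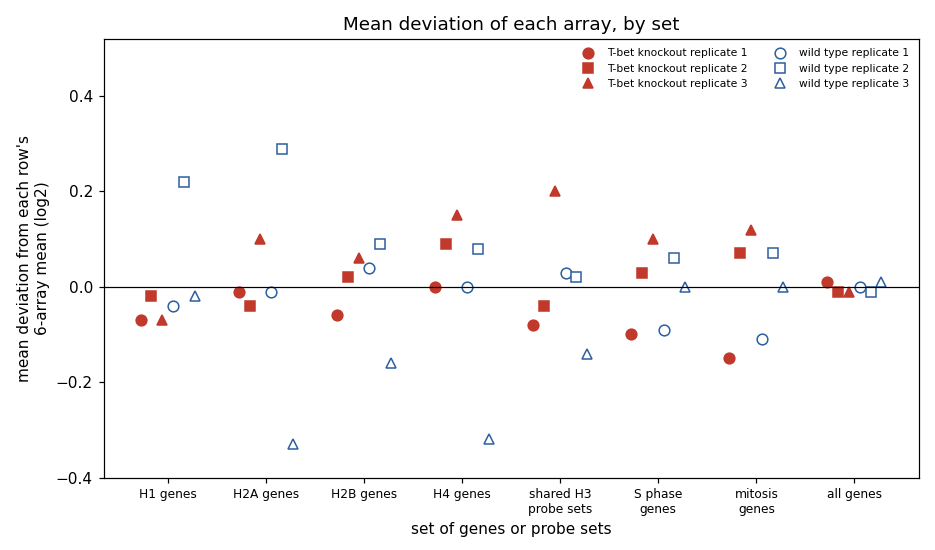
Mean deviation of each array from every row's 6-array mean (log2, vertical axis) for sets of genes or probe sets (horizontal axis), with filled red symbols for knockout and open blue symbols for wild-type arrays. Wild-type replicate 3 lies at -0.32 for H4 genes and wild-type replicate 2 at 0.22 for H1 genes, over all genes the 6 arrays lie between -0.01 and 0.01, and the H2A points at -0.33 and 0.29 are at -0.11 and 0.12 without the dim H2ac12.

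Other proliferation genes shared the direction of this gap in most cases, with wild-type replicate 2 above replicate 3 in 32 of 44 S phase genes (72.7%) and 26 of 32 mitosis genes (81.2%), against 46.9% of all genes. Their median gaps were smaller than that of the histone genes, and the difference between the sets was not tested. S phase genes, those of DNA copying such as the MCM helicase and the polymerases, had a mean deviation of 0.06 in wild-type replicate 2 and -0.00 in replicate 3, and a median gap of 0.03 over 44 genes. For 32 mitosis genes these were 0.07, -0.00 and 0.07. Their lowest array was most often knockout replicate 1, for 22 of 44 S phase and 19 of 32 mitosis genes. Wild-type replicate 1 came next, lowest for 15 and 10. Over all genes these arrays were lowest for 22.3% and 16.3%. The mean deviations of S phase genes were -0.10 in knockout and -0.09 in wild-type replicate 1. Those of mitosis genes were -0.15 and -0.11. The highest array was most often knockout replicate 3, for 23 S phase and 18 mitosis genes. Between the groups, S phase genes had a median difference of 0.011 and mitosis genes of 0.040. Without knockout replicate 1 these medians were 0.079 and 0.10. They were -0.023 and -0.029 without knockout replicate 3, and -0.029 and -0.014 without wild-type replicate 1, so their direction was not stable. At an unadjusted p under 0.05 (limma) were 0 of 44 and 0 of 32 genes. Gins3, which encodes a subunit of the GINS complex of the replicative helicase, differed by 0.18, Pole, a leading strand polymerase gene, by -0.14, and Ung, a uracil glycosylase gene, by 0.21. Ccna2, Pttg1 and Ttk differed by 0.23, 0.21 and 0.14.

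Probe sets naming several histone genes added H3. The 12 that name H3 genes, 4 or 8 genes each, had means of 3.75 to 8.45, with 5 of the 12 in the dim range, and a median difference of 0.021 with 6 above 0, or -0.031 without knockout replicate 3. The brightest of them read 8.36, 8.43 and 8.52 in the knockout and 8.38, 8.53 and 8.49 in the wild-type arrays. Their largest difference was 0.35 (SE 0.17), at 4.84 to 5.19 in the group means, with overlapping groups. The 9 distinct H2A and 7 distinct H2B probe sets had median differences of 0.036 and 0.072, in that order. The H2A median was -0.049 without wild-type replicate 3, and the H2B median was -0.0078 when knockout replicate 3 was left out. Of these, 1 that names 3 H2B genes read 9.70, 9.69 and 9.84 in the knockout and 9.53, 9.35 and 9.27 in the wild-type arrays. Its groups did not overlap, and its difference was 0.36 (SE 0.11, limma unadjusted p = 0.0117, adjusted p = 1; exact permutation p = 0.1). Another, naming 3 H2A genes, read 12.86, 12.85 and 12.78 against 12.94, 12.98 and 12.95, lower in the knockout by -0.13 (SE 0.08, limma adjusted p = 1) without overlap. Of the 33 distinct shared probe sets of 1 type, 0 passed the adjusted threshold, where 0.00% of all 41345 probe sets did. Only 1 of the 33 had an unadjusted p under 0.05 (limma), where 2033 of the 41345 did. The groups did not overlap for 1 higher and 1 lower in the knockout, against 3.52% and 5.18% of all genes. These counts are not a result about the histone genes.

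**Figure D4:**
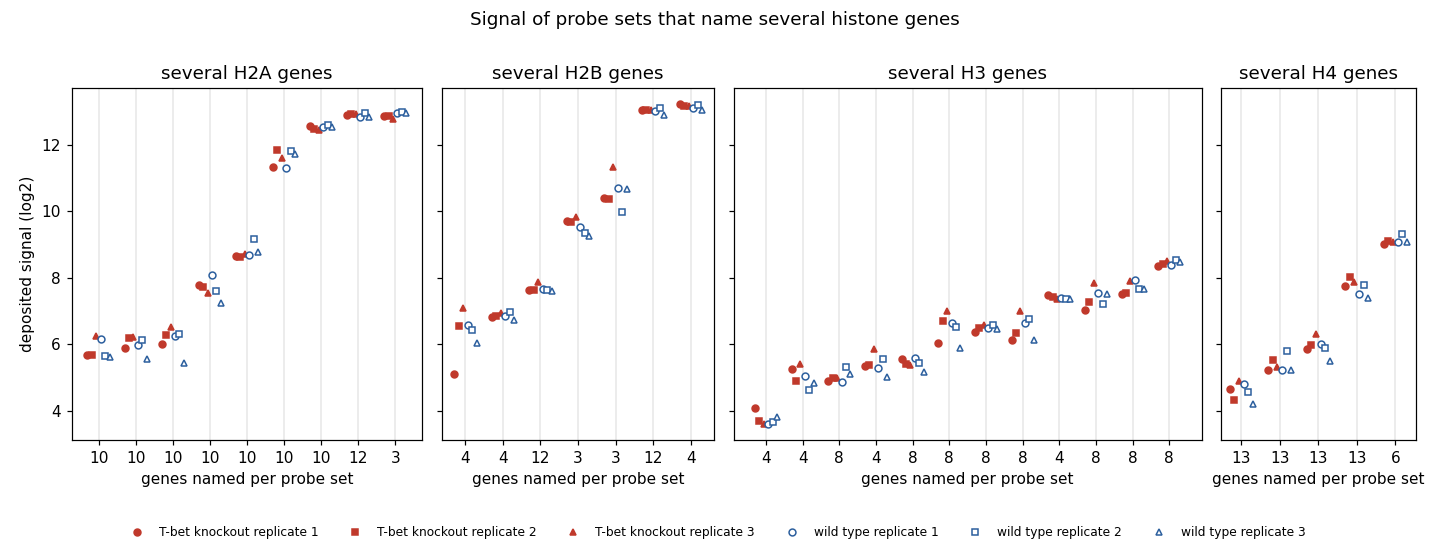
Deposited log2 signal (vertical axis) of the 33 distinct probe sets that name several genes of 1 histone type, sorted by mean, with the number of genes named on the horizontal axis and symbols by array. Within nearly every probe set the red and blue symbols interleave, and they are apart in the H2B probe set at 9.27 to 9.84 and in the H2A probe set at 12.78 to 12.98.

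The genes that make and process histone mRNA were nearly level. Of 35 measured factors, 21 were above 0, with a median of 0.011, and 0 had an unadjusted p under 0.05 (limma). Npat, the coactivator of histone genes that cyclin E with CDK2 switches on, read 10.18, 10.34 and 10.34 in the knockout and 10.24, 10.25 and 10.22 in the wild-type arrays. Slbp, the stem-loop binding protein, read 10.15, 10.27 and 10.48 against 10.16, 10.35 and 10.28. Casp8ap2, the processing factor FLASH, had a mean of 9.36 in both groups. Hinfp, the H4 promoter factor, differed by 0.13 (SE 0.11), and Lsm10 and Lsm11, of the U7 particle, by 0.09 and -0.01. The others of smallest p were Snrpg, a small nuclear ribonucleoprotein gene, at -0.14 and the cyclin gene Ccne1 at 0.11.

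Histone chaperones, which carry histones to DNA, had 6 of 20 genes above 0 and a median of -0.023, with Tonsl at 0.12, Nap1l4 at 0.12 and Ipo4 at -0.08. Replacement histone genes, expressed outside S phase too, had 2 of 8 above 0 and a median of -0.023. Macroh2a2, H2ax and H2az2 differed by -0.18, -0.13 and 0.18, and Cenpa, the centromere H3 variant, read 10.56 ± 0.09 against 10.56 ± 0.10. In both lists 0 genes had an unadjusted p under 0.05 (limma).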

How the data were processed

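Total RNA of sorted cells of 6 mice, 3 T-bet knockout and 3 wild type, was hybridised to Affymetrix arrays as biotin-labelled cRNA, per the labels' protocols. The authors deposited log2 signals, 1 for each probe set on each array; the submitters' processing notes name Affymetrix Expression Console 1.4.1.46. The sources used here do not state how background, normalization and summarisation were set. A log2 scale was inferred from the deposited values (highest 14.23). Array medians lay between 6.44 and 6.53, and values were used as deposited. The number of arrays limits the precision.

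The annotation named 25335 of 41345 probe sets, 23521 with 1 symbol and 1814 with several. Symbols were updated by gene ID through RefSeq (GRCm38.p6) for 23328. For a gene with several, the probe set of highest mean stood for it. H1f7, H1f8 and H1f10 meet the symbol pattern but carry no older Hist name, and were kept apart.

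Knockout minus wild type was fitted with limma 3.58.1 (lmFit, eBayes) in R 4.3.3 over all probe sets, with Benjamini-Hochberg adjustment and a threshold of 0.05. The fit was checked on simulated data. Exact permutation tests were 2-sided. P-values measure the spread between these arrays. Members, gene lists and tests were chosen with earlier results of these data known. Genes were named by type (the 3 of smallest p and the 2 of highest mean), for an unadjusted p under 0.05, as testis genes, as the 3 of smallest p per list, or as 6 core factors of histone mRNA; the remaining members are given so that all are accounted for. The replicate numbers were treated as pairs in the blocked alternative. Deviations from the group means of same-numbered arrays had correlations of 0.285, 0.116 and 0.115 over 1 probe set per gene. The highest correlations between arrays of different number were -0.112, 0.0953 and 0.0953, so only number 1 stood well apart there. Over all probe sets the same-numbered correlations were 0.212, 0.0569 and 0.140, against -0.0661, 0.0215 and 0.0215. Alternatives covered the normalization, array weights, the variance model, dim probe sets, named probe sets alone, the replicate block, the class of sex-linked signal, the mean over a gene's probe sets and each array left out. Merging identical rows could change nothing, since no member's row was identical to another.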

Additional observations from a re-analysis of the deposited data

How the results depend on the processing

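Of the 26 members, 0 passed the adjusted threshold of limma in any of the 15 alternatives, with a smallest adjusted p of 0.679, for H4c2 with array weights. The number with an unadjusted p under 0.05 was 1 in the main fit. It was 2 with array weights (H4c2 and H1f6), 2 with the sex-linked class as a block (H4c2 and H2bc9) and 2 with the replicate block (H4c2 and H1f5). It was 0 with limma-trend, 0 after quantile normalization and 0 without dim probe sets, which removes H4c2 from the table. With 1 array left out it was 0 to 2, and H4c2 had such a p only without knockout replicate 3. H4c8 had such a p without knockout replicate 2 and without wild-type replicate 1. H1f6 did so without wild-type replicate 1 and H2ac15 without wild-type replicate 3. The members above 0 numbered 19 of 26 with the sex-linked class as a block and 9 to 20 with 1 array left out. The median stayed between -0.090 and 0.055 in all alternatives. Adding H1f7, H1f8 and H1f10 or leaving out the 3 testis genes, both chosen after the data were seen, moved neither count by over 1.5 times. The replicate block changed no adjusted call.

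Of the 16 members and 6 factors named by the rule, 13 kept their direction in every alternative, and of all 26 members 12 did. Leaving out H2ac12 from the H2A deviations was also chosen after the data were seen. With the sex-linked class as a block the sign turned for H1f2 (0.0054), H2ac20 (0.0278), H2bc1 (0.0726), H4c12 (0.0618) and Lsm11 (0.0143), with array weights for H2ac1 (-0.0382) and Lsm11 (0.0223), and after quantile normalization for H4c12 (0.0107) and Casp8ap2 (-0.0048). With 1 array left out the differences that turned ranged over -0.1174 to 0.0078 for H1f2, -0.1015 to 0.3599 for H2ac1, -0.1263 to 0.0296 for H2ac20, -0.5093 to 0.0296 for H2bc1, -0.0001 to 0.5027 for H2bc14, -0.1255 to 0.0872 for H4c12, -0.0677 to 0.1265 for Casp8ap2, -0.0569 to 0.1083 for Slbp and -0.0793 to 0.0322 for Lsm11. The cause was not tested. Dim values of H1f6, H2ac12, H2bc1, H2bc14, H2bc22, H4c2 and H4c17 limit what their differences show.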

Other observations

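Genes close to the members but outside them gave further values. H1f10, the replacement linker histone H1X, had 7.51 ± 0.06 with the knockout and 7.54 ± 0.17 with the wild type. H1f8, the linker histone of the oocyte, differed by 0.09 (SE 0.10), and H1f7, a linker histone of the male germ line, by -0.25 (SE 0.13) at dim signal.

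H2aw and H4f16, once Hist3h2a and Hist4h4, have been renamed beyond the symbol pattern. H2aw read 7.28, 7.53 and 8.28 in the knockout and 7.94, 7.38 and 7.69 in the wild-type arrays, a difference of 0.02 (SE 0.28). H4f16 read 9.52, 9.30 and 9.23 in the knockout and 9.37, 9.90 and 9.43 in the wild-type arrays, a difference of -0.21 (SE 0.17), with wild-type replicate 2 again the highest.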
